A study of Mus musculus with 2 samples.

Results

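Collagen chain genes were examined in colon tumours of mice given azoxymethane and dextran sulphate sodium (AOM/DSS), a carcinogen followed by an agent that injures and inflames the colon. The genes were chosen by symbol, as Col followed by a number, the letter a and a number, with at least 20 unique molecular identifiers (UMIs, each counting 1 captured RNA molecule) over both libraries: 41 of 44 such symbols passed, out of 32285 genes in the files. Col4a6, Col6a6 and Col10a1 had 12, 16 and 8 UMIs and were left out. The study compared tumours of Gsk3b IEC-/- mice (the KO library), whose intestinal epithelium is labelled as lacking the kinase gene Gsk3b, with tumours of Gsk3b IEC+/+ mice (the WT library), and both had AOM/DSS. There was 1 library per genotype, so no difference has a replicate check, no test was run, and every interval below is a 95% interval for counting error alone. The number of animals behind each library, the Cre driver and the deleted part of Gsk3b are not given in the sources used here.

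Collagens are secreted or membrane-bound proteins whose chains wind into a rope-like helix. Fibrillar collagens I, II, III, V, XI, XXIV and XXVII form or regulate the tensile fibres of connective tissue, collagen IV forms the sheet-like network of basement membranes under epithelium and around vessels, collagen VI makes beaded filaments, and FACIT collagens, such as IX, XII, XIV and XVI, decorate fibrils. In the gut wall, fibroblasts are the classical source of the fibrillar chains. Endothelial cells and pericytes are known for collagen IV, and collagens XIII, XVII, XXIII and XXV span the plasma membrane. Collagen RNA from broken fibroblasts can also be caught in droplets with other cells, so levels in epithelial cells, and several in immune cells, are set beside those of empty droplets, barcodes with under 100 UMIs.

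The positions of the genes place several partner chains side by side (GRCm38, mm10). Col4a1 (chr8:11198423-11312826, minus strand) and Col4a2 (chr8:11312805-11449287, plus strand), the chains of the ubiquitous collagen IV, start head to head and overlap by 22 bases. Col4a4 (chr1:82448423-82586849, minus strand) and Col4a3 (chr1:82586921-82722059, plus strand) also start beside each other, and Col3a1 (chr1:45311538-45349706, plus strand) lies next to Col5a2 (chr1:45374321-45503282, minus strand). The window from 250 bases before to 50 bases after a start site was taken from RefSeq (GRCm38.p6), where 35 of the collagen genes had an entry, with 38 windows. Shown are the shared Col4a1 and Col4a2 start, whose level was highest in endothelial cells, the fibroblast genes Col1a2 and Col3a1, and Col16a1 and Col23a1, which are followed into the epithelium below; capitals mark CCAAT, or ATTGG where it lies on the other strand. The windows are chr8:11312777-11313076 (minus strand), chr6:4505368-4505667, chr1:45311288-45311587, chr4:130047590-130047889 and chr11:51289670-51289969 (all plus strand).
Col4a1: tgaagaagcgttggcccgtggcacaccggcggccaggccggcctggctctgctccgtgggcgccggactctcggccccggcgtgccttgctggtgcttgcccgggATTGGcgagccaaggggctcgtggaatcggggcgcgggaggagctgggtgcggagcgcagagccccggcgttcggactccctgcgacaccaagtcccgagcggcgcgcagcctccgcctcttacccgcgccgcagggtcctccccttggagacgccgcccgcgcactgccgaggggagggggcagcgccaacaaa
Col1a2: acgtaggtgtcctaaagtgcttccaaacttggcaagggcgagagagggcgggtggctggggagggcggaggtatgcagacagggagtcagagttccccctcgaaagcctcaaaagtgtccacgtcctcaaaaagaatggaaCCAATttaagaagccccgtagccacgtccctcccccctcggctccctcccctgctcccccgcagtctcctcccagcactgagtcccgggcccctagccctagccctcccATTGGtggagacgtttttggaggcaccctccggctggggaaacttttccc
Col3a1: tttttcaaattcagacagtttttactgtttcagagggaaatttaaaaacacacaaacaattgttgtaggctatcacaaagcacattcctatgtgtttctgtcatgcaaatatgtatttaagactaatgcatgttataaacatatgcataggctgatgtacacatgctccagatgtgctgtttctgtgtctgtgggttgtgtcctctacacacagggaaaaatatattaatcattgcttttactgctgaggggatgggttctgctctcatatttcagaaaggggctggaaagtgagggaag
Col16a1: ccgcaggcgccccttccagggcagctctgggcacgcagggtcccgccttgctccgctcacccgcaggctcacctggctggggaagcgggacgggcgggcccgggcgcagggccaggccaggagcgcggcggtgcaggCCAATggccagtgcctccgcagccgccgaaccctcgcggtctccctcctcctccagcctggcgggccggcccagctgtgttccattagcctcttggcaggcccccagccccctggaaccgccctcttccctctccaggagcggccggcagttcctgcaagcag
Col23a1: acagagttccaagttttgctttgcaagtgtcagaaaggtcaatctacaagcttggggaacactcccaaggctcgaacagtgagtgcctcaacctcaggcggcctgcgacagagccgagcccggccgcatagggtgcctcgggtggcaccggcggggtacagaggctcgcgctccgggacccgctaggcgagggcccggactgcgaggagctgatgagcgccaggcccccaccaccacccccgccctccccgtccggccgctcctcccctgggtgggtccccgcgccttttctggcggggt
CCAAT, searched on both strands, stood in 13 of the 38 collagen windows (34.2%) and in 37.4% of all 32851 promoter windows. The letters GGGCGG, also on both strands, stood in 23 collagen windows (60.5%) against 35.7% of all windows, and TATAAA stood in 5 (13.2%) against 13.6%. The Col1a2 window held CCAAT 2 times and GGGCGG 2 times, the Col3a1 window held TATAAA 1 time and neither of the other motifs, and the Col4a1 window held CCAAT and GGGCGG 1 time each. These matches describe the letters in the windows only.

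The KO library held 156641780 UMIs and 10144 cells with a median of 3399.5 UMIs, and the WT library 164574326 UMIs and 9016 cells with a median of 5387 UMIs. Clustering without the collagen genes gave 10 named classes, and 27 cell barcodes occurred in both libraries. Epithelial cells numbered 4028 in KO and 4178 in WT, fibroblasts 219 and 35, and blood endothelial cells 74 and 37. The WT fibroblast sum and both endothelial sums rest on few cells. Immunoglobulin UMIs outside B and plasma cells put the free RNA in cells at 12.1% in KO and 10.5% in WT. Gsk3b (chr16:38089001-38246084, plus strand) stood at 242 counts per 1000000 UMIs of a class (CPM) in KO and 265 CPM in WT epithelium, 211 and 212 CPM in fibroblasts, and 233 and 237 CPM in endothelial cells; the 3′ tags counted here may lie outside the deleted part, so this does not check the labels.

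Most collagen RNA of the KO library lay in fibroblasts, and most of that of the WT library in epithelial cells. KO fibroblasts held 67.3% of all collagen UMIs in cells (66.9 to 67.7), or 32677 UMIs, while WT fibroblasts held 21.2% (20.6 to 21.8), or 4298 UMIs. Epithelial cells held 23.9% in KO and 63.0% in WT, with 11586 and 12759 UMIs. Blood endothelial cells held 5.65% and 10.8%. The classes also differed in the number of cells caught: fibroblasts made up 2.16% of KO cells and 0.388% of WT cells, and library-wide collagen levels cannot be told apart from that difference. With every barcode of 500 or more UMIs taken as a cell, the fibroblast shares of collagen UMIs were 64.1% in KO and 11.5% in WT. Over all cells, collagen RNA stood at 420 CPM in KO and 167 CPM in WT.

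**Figure D1:**
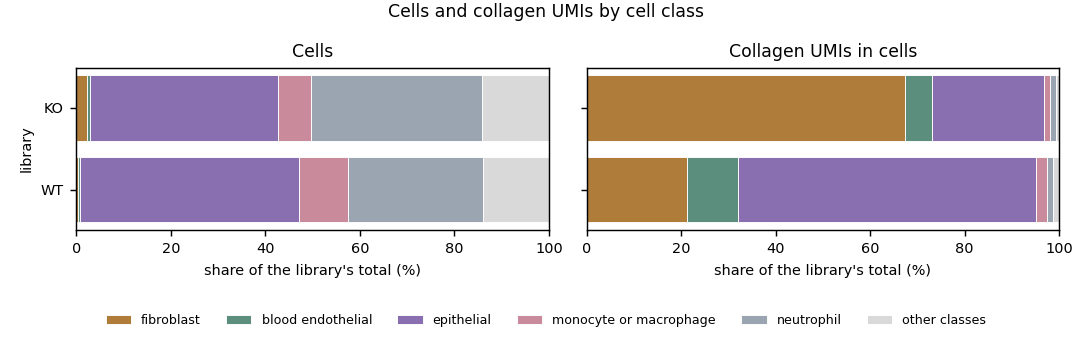
Share of cells (left) and of the collagen UMIs in cells (right) held by each cell class, in percent of the library's total, with the KO library above the WT library. Fibroblasts hold 67.3% of collagen UMIs in KO and 21.2% in WT, but 2.16% and 0.388% of cells.

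Relative to all UMIs of a class, the order was the same in both libraries: fibroblasts were highest, endothelial cells next and epithelial cells far lower. All collagen chains together reached 16876 CPM in KO and 12850 CPM in WT fibroblasts, 3784 and 5974 CPM in endothelial cells, and 125 and 129 CPM in epithelial cells. Neutrophils had 86.9 and 38.7 CPM, and monocytes or macrophages had 83.7 and 59.0 CPM. Empty droplets held 318 CPM in KO and 152 CPM in WT, above the epithelial level in both libraries. These are 3′ tag counts, in which a gene's length does not enter, so CPM can be set side by side between genes only as tags captured.

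A gene was said to be led by a class when its CPM was highest there, among classes with at least 20 cells in the library, and at least 10 of its UMIs lay in that class. Fibroblasts led 21 collagen genes in KO and 16 in WT, against 10.8% and 7.31% of all 20358 genes with enough UMIs. The 16 led in both were Col1a1, Col1a2, Col3a1, Col5a1, Col5a2, Col5a3, Col6a1, Col6a2, Col6a3, Col8a1, Col12a1, Col14a1, Col16a1, Col18a1, Col27a1 and Col28a1. Col6a4, Col6a5, Col7a1, Col24a1 and Col11a1, the last with all its fibroblast UMIs in 1 cell, joined them in KO. The WT count rests on the calling of cells: with every barcode of 500 or more UMIs taken as a cell, 18 WT fibroblasts were named, under the minimum of 20 cells, and they led 0 chains. Endothelial cells led 5 genes in each library, the same ones, against 7.79% of all genes in KO and 7.52% in WT: Col4a1, Col4a2, Col13a1, Col15a1 and Col23a1. Epithelial cells led 6 in KO and 8 in WT, against 19.4% and 22.3% of all genes: Col2a1, Col9a1, Col9a2, Col9a3, Col17a1 and Col25a1 in both, and Col4a3 and Col26a1 in WT. Col4a4, Col4a5, Col8a2, Col19a1, Col20a1 and Col22a1 had under 10 UMIs in their highest class and so no leading class in either library, and Col11a2 was led by monocytes or macrophages in WT and by no class in KO.

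**Figure D2:**
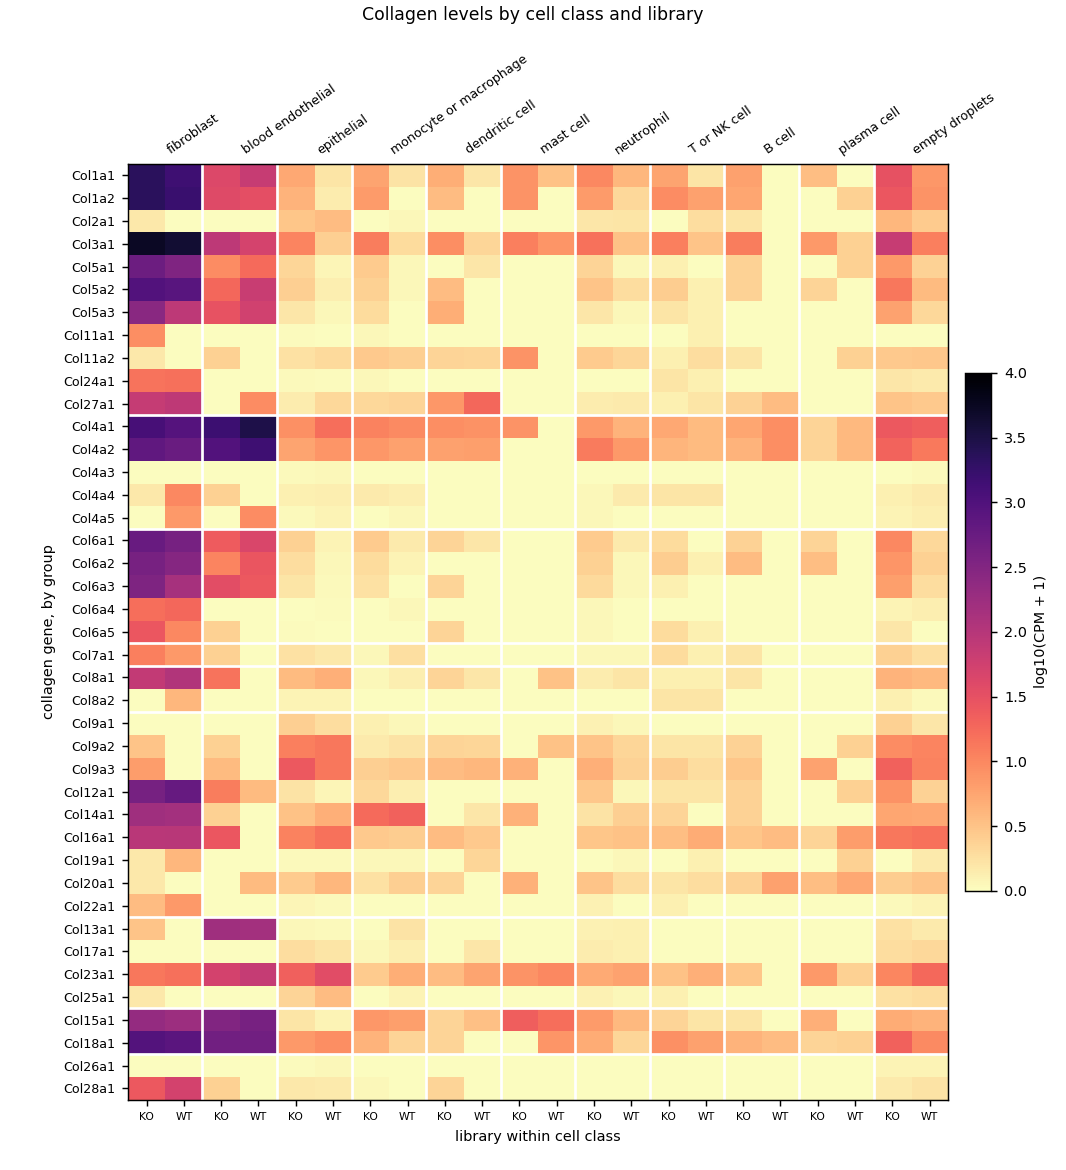
Level of each collagen chain (rows, by collagen family) in each cell class and in empty droplets, KO left of WT, with colour for log10 of CPM plus 1. The collagen I, III and V chains are highest in fibroblasts, Col4a1 and Col4a2 in endothelial cells, and the collagen IX chains in epithelial cells.

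Summed over the class, fibroblasts of the KO tumours carried more RNA of the major fibrillar chains than those of the WT tumours. Col3a1, the collagen III chain of loose connective tissue, had 5327 CPM in KO and 4119.9 CPM in WT fibroblasts, a log2 ratio of 0.37 (0.29 to 0.45). Col1a1, the main collagen I chain, had 2285 and 1468 CPM, a log2 ratio of 0.64 (0.50 to 0.78), and its partner chain Col1a2 had 2274 and 1638 CPM, a log2 ratio of 0.47 (0.34 to 0.60). The 2 chains were close to 1 to 1, with 1.00 Col1a1 tag per Col1a2 tag in KO and 0.896 in WT. The typical cell did not show the Col1a1 difference. The median cell had 12.1 Col1a1 UMIs per 10000 in KO and 12.2 in WT, while the highest cell had 590 and 60 UMIs. A Col1a2 difference was also absent at the median, with 16.9 per 10000 in KO and 16.8 in WT. The highest cell had 310 and 53 Col1a2 UMIs. For Col3a1 the median cell had 41.2 per 10000 in KO and 37.0 in WT.

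The regulatory and minor fibrillar chains followed, with log2 ratios on both sides of 0. Col5a2, which joins collagen I fibrils, had 931 CPM in KO and 816 CPM in WT fibroblasts, a log2 ratio of 0.19 (0.01 to 0.38). Col5a1 had 522 and 332 CPM, a log2 ratio of 0.65. At the median, Col5a2 had 6.61 UMIs per 10000 in KO and 6.83 in WT, and Col5a1 had 4.40 and 2.77. Col5a3, a further collagen V chain, had 266 and 83.7 CPM, a log2 ratio of 1.67 (1.12 to 2.27). The median cell had 0 Col5a3 UMIs in both libraries, a UMI was seen in 40.6% of KO and 48.6% of WT fibroblasts, and the highest cell had 85 and 4 UMIs. Col27a1, a fibrillar chain best known from cartilage, had 70.8 and 80.7 CPM. Col24a1 had 13.4 and 14.9 CPM, and Col11a1 had 15 UMIs in KO fibroblasts, all in 1 of 219 cells, and 0 in the smaller WT sum. The 11 fibrillar chains together had 11697 CPM in KO and 8554 CPM in WT fibroblasts, a log2 ratio of 0.45 (0.40 to 0.51).

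The main chains of collagen VI, which builds microfibrils around cells, went the same way. Col6a1 had 562 CPM in KO and 416 CPM in WT fibroblasts, Col6a2 had 401 and 284 CPM, and Col6a3 had 350 and 138 CPM, log2 ratios of 0.44, 0.50 and 1.35. The typical cell did not show the Col6a3 difference: the median cell had 0.512 UMIs per 10000 in KO and 0.719 in WT, a UMI was seen in 50.2% and 54.3% of cells, and the highest cell had 74 and 6 UMIs. The chains Col6a4 and Col6a5 were far lower, at 14.98 and 17.9 CPM and at 26.3 and 8.97 CPM. Of the fibril-decorating chains, Col12a1 went the other way, with 412 CPM in KO and 586 CPM in WT fibroblasts, a log2 ratio of -0.51 (-0.74 to -0.28). Col14a1 had 162 and 152 CPM and Col16a1 had 91.4 and 92.7 CPM, log2 ratios of 0.09 and -0.02. Col28a1, a von Willebrand domain collagen, had 24.8 and 50.8 CPM, a log2 ratio of -1.04 (-1.86 to -0.14), and Col8a1, a network-forming chain, had 75.4 and 108 CPM. The anchoring fibril chain Col7a1 had 10.8 and 5.98 CPM, with 21 and 2 UMIs.

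The basement membrane chains were also high in fibroblasts. Col4a1 had 1198 CPM in KO and 879 CPM in WT fibroblasts, a log2 ratio of 0.45 (0.27 to 0.63), and Col4a2 had 690 and 559 CPM. The median cell did not show the Col4a1 difference, with 7.51 UMIs per 10000 in KO and 7.50 in WT. For Col4a2 it had 4.7 and 4.22. Col18a1, whose C-terminal end is the source of endostatin, had 923 CPM in KO and 780.3 CPM in WT, a log2 ratio of 0.24 (0.05 to 0.44). Its median went the other way, with 5.48 UMIs per 10000 in KO and 7.52 in WT, and the highest cell had 62 and 27 UMIs. The related Col15a1 had 210 and 176 CPM. Of 24 collagen genes compared in fibroblasts, 6 were over 1.5-fold higher in KO and 1 over 1.5-fold lower, where 16.9% and 14.5% of all genes were; their median log2 ratio was 0.28, and that of all genes -0.00. The markers of fibroblasts summed to 12883 CPM in KO and 11185 CPM in WT, and those of pericytes to 2362 and 2780.5 CPM in the same cells; the part of this mixture in the ratios was not tested beyond the split that follows.

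**Figure D3:**
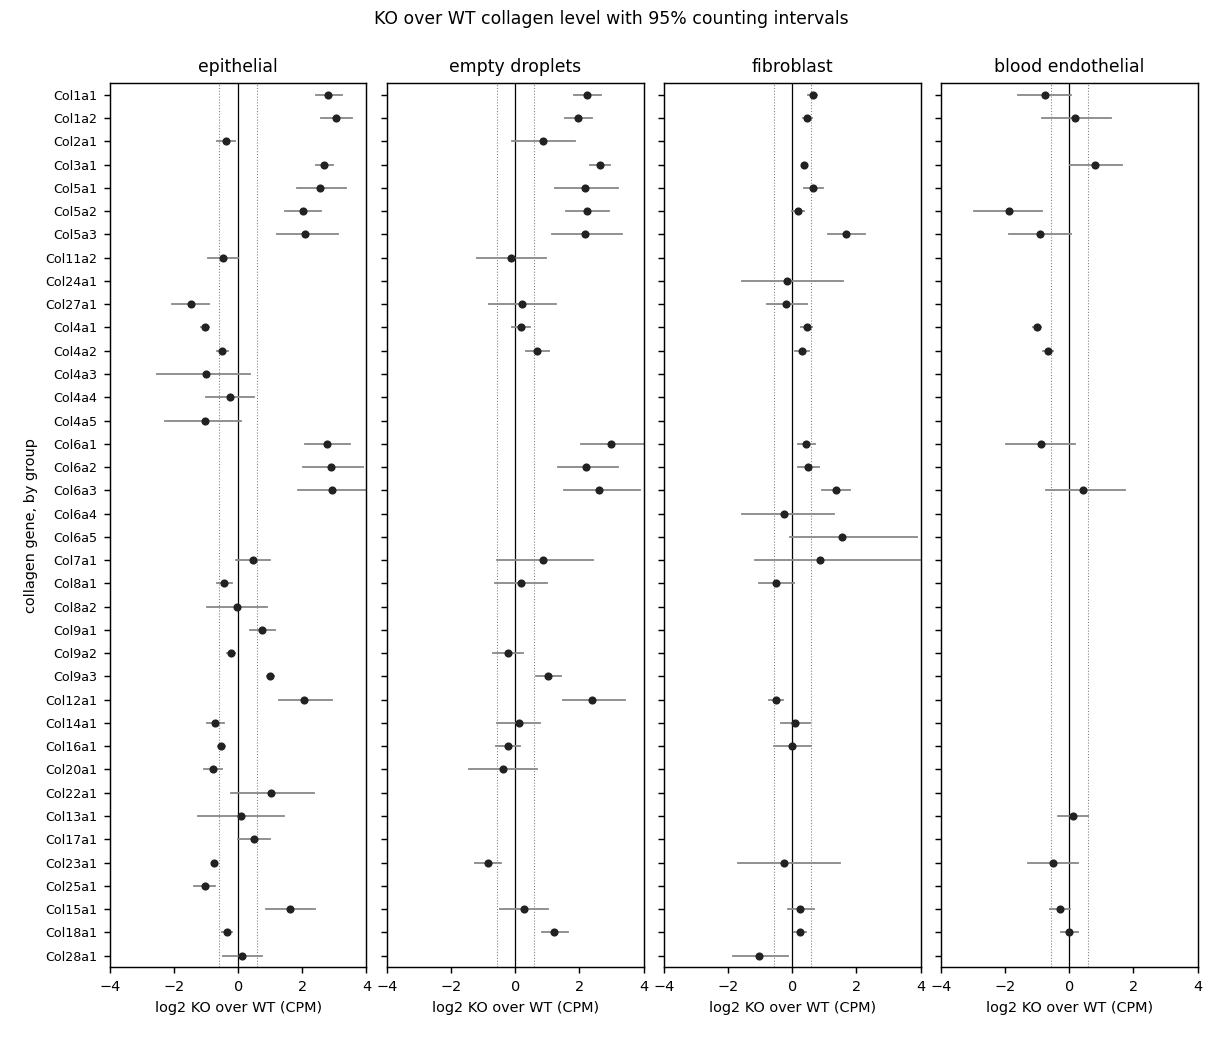
Log2 ratio of KO over WT for the collagen chains compared in epithelial cells, empty droplets, fibroblasts and blood endothelial cells; bars are 95% counting intervals, the longest cut at the axis, and dotted lines mark 1.5-fold. Col1a1, Col1a2, Col3a1 and the collagen V chains lie above 0 in epithelial cells and empty droplets, while Col4a1 lies at -1.03 in epithelial and -0.996 in endothelial cells.

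Reclustering the fibroblast class without collagen genes divided the chains among its groups. A group led by Sncaip, Rbfox1 and Inhba (58 KO and 21 WT cells) got no cell type name. Under 3 markers passed in it, and the pericyte or smooth muscle list scored best with 2. This group was richest in fibrillar RNA in KO, where Col1a1 had 3424 CPM and Col3a1 6318 CPM, against 1347 and 3818 CPM in WT. It also held the most Col12a1, at 717 CPM in KO and 693 CPM in WT, so the lower Col12a1 of KO fibroblasts as a whole was not seen within it. Col5a3 there had 364 and 71.8 CPM, and Col6a3 526 and 131 CPM. A group led by Gas1, Il33 and Ptx3 (48 and 4 cells) carried Col14a1 at 496 CPM and Col8a1 at 360.2 CPM in KO, with Col18a1 at 34.1 CPM and Col15a1 at 19.5 CPM. The split by group differs between the libraries, with 21 of 35 WT cells but 58 of 219 KO cells in the first group.

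The smallest fibroblast group, 7 KO and 2 WT cells, had pericyte markers at 20062 and 23686 CPM. In its KO cells Col4a1 reached 4194 CPM, Col18a1 1607 CPM, Col6a3 1193 CPM and Col5a3 1132 CPM. Pericytes sit within the vessel's basement membrane, and these levels of Col4a1 are above those of the other fibroblast groups, from 560 to 1282 CPM in KO. A further group (53 KO and 2 WT cells) had neutrophil markers at 1587 CPM in KO beside 1245 CPM of Col1a1 and 4515 CPM of Col3a1, so RNA of both kinds of cell was counted in it. Without the pericyte group the fibroblast share of KO collagen UMIs was 63.5%.

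**Figure D4:**
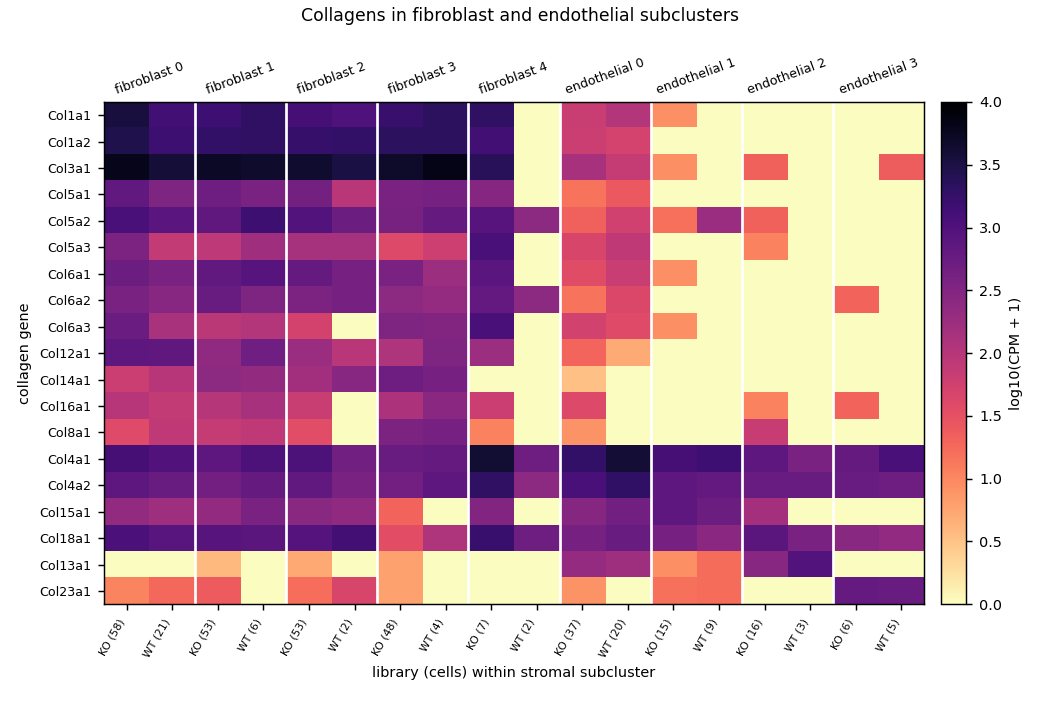
Level of selected collagen chains in the fibroblast and endothelial groups, KO left of WT with the number of cells in parentheses, and colour for log10 of CPM plus 1; fibroblast 0 is the Sncaip group, fibroblast 3 the Gas1 group, fibroblast 4 the pericyte-marked group and endothelial 3 the lymphatic-like group. The pericyte-marked fibroblast group reaches 4194 CPM of Col4a1 in KO, and the lymphatic-like group is highest for Col23a1 (603 and 554 CPM).

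Among the named classes, endothelial cells had the highest level of collagen IV, and a lower one in the KO tumours. In KO, the small pericyte-marked group counted among the fibroblasts stood higher for Col4a1. By number of UMIs, collagen IV was spread over classes: fibroblasts held 3656 UMIs in KO and 486 in WT, endothelial cells 1773 and 1652, and epithelial cells 1188 and 2265. Col4a1 had 1513 CPM in KO and 3017 CPM in WT endothelial cells, a log2 ratio of -0.996 (-1.12 to -0.87), and Col4a2 had 933 and 1481 CPM, a log2 ratio of -0.67 (-0.83 to -0.50). The median cell had 10.8 Col4a1 UMIs per 10000 in KO and 15.9 in WT, and the highest cell 161 and 244 UMIs. Per Col4a2 tag there were 1.62 Col4a1 tags in KO and 2.04 in WT endothelial cells. Epithelial markers summed to 4469.8 CPM in KO and 1359 CPM in WT endothelial cells, and endothelial markers to 6257 and 8225 CPM; the part of that epithelial RNA in the lower Col4a1 level was not tested. Fibroblasts held the 2 chains at 1.74 in KO and 1.57 in WT, and neutrophils at 0.530 and 0.537.

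The next most abundant chains of these cells differed less. Col18a1 had 453 CPM in both KO and WT endothelial cells, a log2 ratio of -0.00 (-0.27 to 0.28). Col15a1, a basement membrane proteoglycan of vessels, had 323 and 396 CPM, a log2 ratio of -0.29 (-0.60 to 0.02), and Col13a1, a transmembrane adhesion collagen, had 164 and 153 CPM, a log2 ratio of 0.10. Col5a2 had 17.9 CPM in KO and 65.5 CPM in WT, but in 5 and 3 cells, and Col3a1 had 85.6 and 49.1 CPM in 10 and 3 cells. Col16a1 had 19 UMIs in KO and 0 in WT endothelial cells, with 14 of them in 1 cell. Of 13 collagen genes compared, 1 was over 1.5-fold higher and 6 were over 1.5-fold lower in KO, where 16.2% and 13.6% of all genes were; the median log2 ratio was -0.51, and that of all genes 0.02.

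Groups within the endothelial class carried different chains. Col23a1, a transmembrane collagen, had 49.7 CPM in KO and 70.9 CPM in WT over the class, and nearly all of it lay in the lymphatic-like group, with 603 CPM in 6 KO cells and 554 CPM in 5 WT cells. Col15a1 was highest in the group led by Ackr1 and Madcam1, markers of venules, at 708 CPM in KO and 515 CPM in WT. Col13a1 was highest in the group led by Sema3g and Bmx, genes of arteries, at 275 CPM in 16 KO cells and 911 CPM in 3 WT cells. Col4a1 was highest in a group with Col1a2, Rgs5 and Apln among its leading genes, at 1886 CPM in KO and 3953 CPM in WT (37 and 20 cells). The fibroblast chain Col1a2 ranked first among those genes. That group was left without a cell type name: epithelial markers scored best in it, but another class led its top genes. Its pericyte markers summed to 1190.2 CPM in KO and 1215 CPM in WT, its epithelial markers to 6406.5 and 1408 CPM, and its endothelial markers to 6230.2 and 8902 CPM; the part of that other RNA in the Col4a1 difference was not tested.

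In the epithelium, Col23a1 was the 1 collagen gene whose counting interval lay wholly above that of empty droplets in both libraries. Col9a1, Col9a2, Col9a3, Col20a1 and Col25a1 had higher values than empty droplets in both, with intervals that overlapped in at least 1 library. So did Col4a3, from 7 KO and 15 WT epithelial UMIs, and Col11a1, from 6 and 2. Other settings put 2 or 3 chains wholly above. Col23a1 had 20.4 CPM in KO and 34.3 CPM in WT epithelial cells, a log2 ratio of -0.75 (-0.83 to -0.67). Empty droplets had 9.36 and 16.8 CPM. A Col23a1 UMI was seen in 14.0% of KO and 19.9% of WT epithelial cells and in 0.712% and 1.28% of neutrophils, taken as a class without it. With every cell thinned to 1500 UMIs these shares were 3.15% and 4.45% in epithelium and 0.587% and 0.734% in neutrophils; 278 KO and 335 WT epithelial cells and 930 and 261 neutrophils were too shallow to enter. Within the stem or progenitor-like group led by Bpifb5 and Pnliprp2 (629 and 1010 cells), Col23a1 had 94.5 CPM in KO and 113 CPM in WT, a smaller difference at a log2 ratio of -0.26 (-0.36 to -0.16). The group led by Ly6g6c and Iapp had 27.4 and 40.7 CPM.

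Collagen IX, a fibril-decorating collagen best known from cartilage, was also led by epithelial cells. Col9a3 had 25.1 CPM in KO and 12.5 CPM in WT epithelium, a log2 ratio of 1.00 (0.90 to 1.10), and empty droplets had 20.02 and 9.82 CPM. Its partner Col9a2 did not share that difference, with 10.7 and 12.4 CPM, a log2 ratio of -0.21 (-0.34 to -0.09), and 8.16 and 9.48 CPM in empty droplets. There were 0.428 Col9a2 tags per Col9a3 tag in KO and 0.992 in WT epithelium, and 0.408 and 0.966 in empty droplets. Col9a1, the remaining chain, had 1.51 and 0.900 CPM, a log2 ratio of 0.75. Of all Col9a3 UMIs in cells, 97.3% in KO and 97.5% in WT lay in epithelial cells, and a Col9a3 UMI was seen in 8 of 219 KO fibroblasts (3.65%) and 0 of 35 WT fibroblasts.

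The Col9a3 difference was uneven over the epithelial groups. In the Bpifb5 and Pnliprp2 group Col9a3 had 60.9 CPM in KO and 23.2 CPM in WT, a log2 ratio of 1.39 (1.24 to 1.55), while Col9a2 had 30.2 and 29.4 CPM, a log2 ratio of 0.04. In the cycling group led by Ube2c and Top2a Col9a3 had 24.6 and 9.61 CPM, and in the Ly6g6c and Iapp group 45.2 and 21.7 CPM. In the group led by Clstn2 and Thbs2, with 1048 KO and 102 WT cells, it had 38.6 and 34.9 CPM, a log2 ratio of 0.15. The difference between the libraries was thus large in the first group and within counting error in the last.

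**Figure D5:**
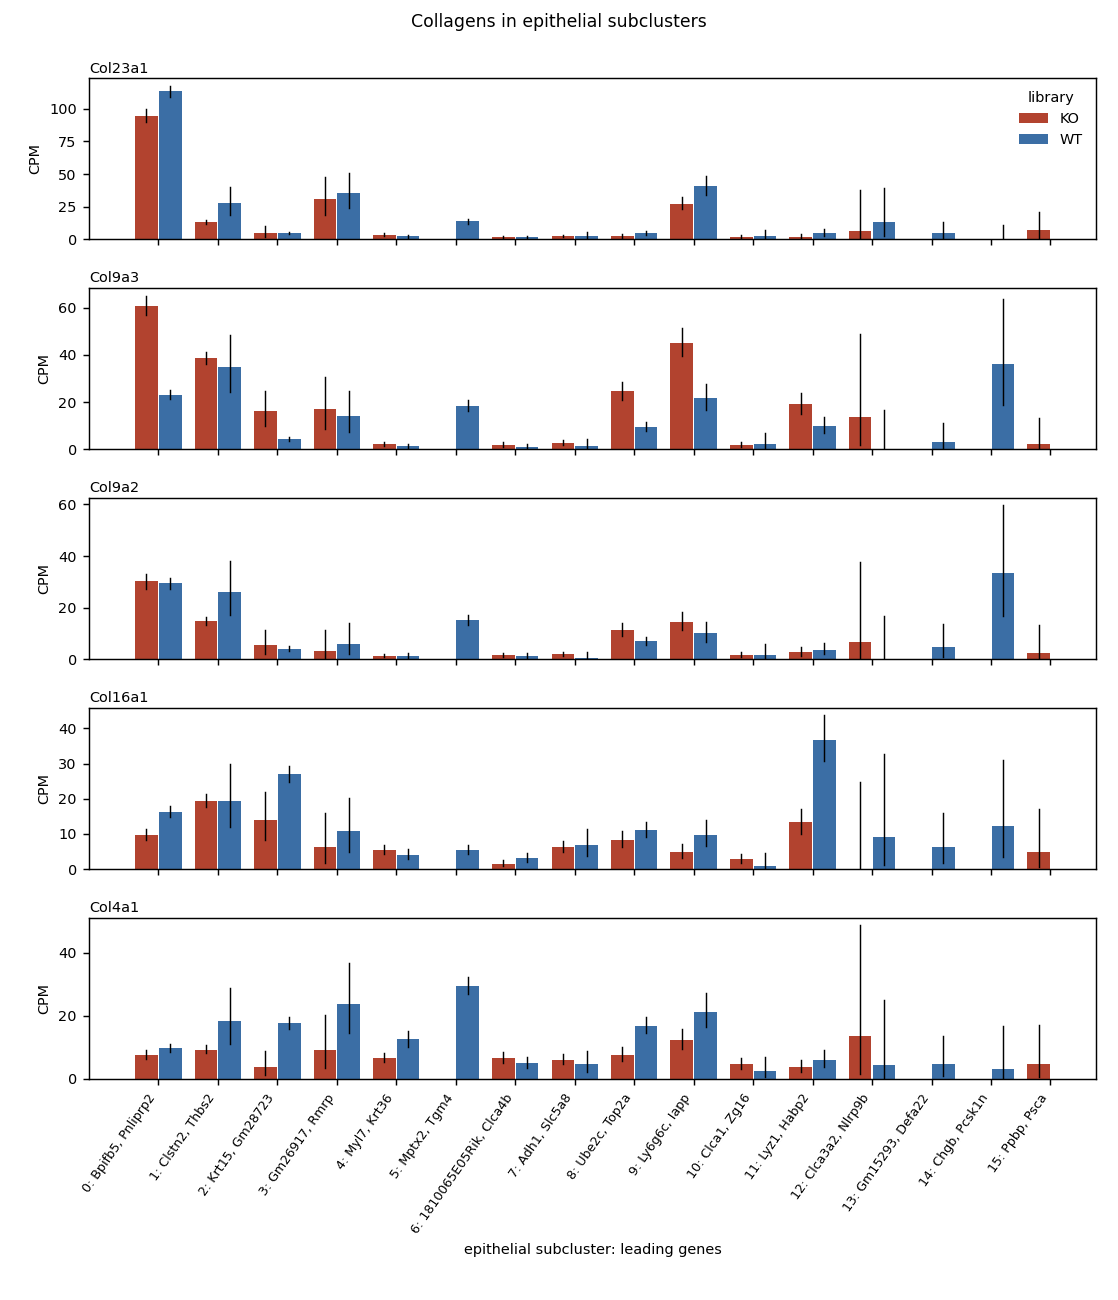
Level of 5 collagen chains in the epithelial groups, named by number and leading genes, in CPM, as bars with 95% counting intervals, KO left of WT; a library with under 20 cells in a group has no bar there. Col23a1 peaks in the stem or progenitor-like group (94.5 CPM in KO and 113 CPM in WT), where Col9a3 stands at 60.9 and 23.2 CPM.

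Col16a1, a fibril-decorating collagen, was found both in fibroblasts and in epithelium. Its level was higher in fibroblasts, 91.4 CPM in KO and 92.7 CPM in WT, but epithelial cells held 79.5% of its UMIs in KO cells and 94.5% in WT cells. Col16a1 had 9.86 CPM in KO and 14.2 CPM in WT epithelium, a log2 ratio of -0.52 (-0.65 to -0.40), and empty droplets had 12.4 and 14.4 CPM. The amount expected from free RNA is the contamination share of the library times the level in its empty droplets, and the epithelial Col16a1 level was 6.56 times that amount in KO and 9.37 times in WT. A UMI was present in 13.1% of KO and 16.9% of WT epithelial cells and in 0.383% and 0.582% of neutrophils; thinned to 1500 UMIs, in 1.63% and 1.95% of epithelial cells and 0.257% and 0.216% of neutrophils. By group, Col16a1 was alike in the Clstn2 and Thbs2 group (19.5 and 19.4 CPM), and lower in KO in the group led by Lyz1 and Habp2 (13.3 and 36.8 CPM, a log2 ratio of -1.47 with an interval of -1.95 to -1.01) and in the Bpifb5 and Pnliprp2 group (9.72 and 16.3 CPM).

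Fibroblast chains were also counted in epithelial cells, at levels close to the amount expected from free RNA. Col3a1 had 9.46 CPM in KO and 1.47 CPM in WT epithelium, a log2 ratio of 2.69 (2.44 to 2.95), beside 67.7 and 10.9 CPM in empty droplets, a log2 ratio of 2.63. The epithelial Col3a1 level was 1.15 times the free RNA estimate in KO and 1.27 times in WT. Col1a1 had 4.26 and 0.606 CPM in epithelium and 30.03 and 6.36 CPM in empty droplets, and 1.17 and 0.907 times the estimate. Col1a2, Col5a1, Col5a2, Col5a3, Col6a1, Col6a2, Col6a3, Col12a1 and Col15a1 had log2 ratios of 1.61 to 3.04 in epithelium and likewise lay at 0.565 to 1.81 times the estimate. Per Col1a2 tag there were 2.84 Col3a1 tags in KO and 3.63 in WT epithelium, 2.57 and 1.61 in empty droplets, and 2.34 and 2.51 in fibroblasts. At least 1 UMI of 5 fibroblast genes was present in 789 KO epithelial cells (19.6%) and 239 WT epithelial cells (5.72%), and the fibroblast markers summed to 181 CPM in KO and 143 CPM in WT epithelium, with all 10 detected. The 11 fibrillar chains together had a log2 ratio of 1.57 (1.45 to 1.68) in epithelium, with 23.5 and 7.94 CPM. After subtraction of the free RNA their ratio was 0.08 (-0.11 to 0.27). That sum mixes directions, since it also holds Col2a1, Col11a2 and Col27a1. Before subtraction these had log2 ratios of -0.39, -0.47 and -1.48 in epithelium. The sum therefore does not give the ratio left for the fibroblast chains alone.

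Summed over the class, basement membrane and several other chains of the epithelium were lower in KO. Col4a1 had 7.54 CPM in KO and 15.4 CPM in WT epithelium, a log2 ratio of -1.03 (-1.16 to -0.90), while empty droplets had 24.6 and 21.8 CPM, and the level was 2.53 and 6.73 times the free RNA estimate. Col4a2 had 4.79 and 6.74 CPM, a log2 ratio of -0.49, and Col18a1 had 6.13 and 7.86 CPM, a log2 ratio of -0.36. In the cycling group Col4a1 had 7.70 and 16.9 CPM, while in the absorptive group it had 6.57 and 5.04 CPM. In the Bpifb5 and Pnliprp2 group Col4a1 had 7.60 and 9.89 CPM, a log2 ratio of -0.38 (-0.73 to -0.04). Col4a2 had 3.65 and 2.65 CPM there, a log2 ratio of 0.46 (-0.10 to 1.02). The groups were unevenly divided between the libraries, with 1048 KO and 102 WT cells in the Clstn2 and Thbs2 group. The part of that division in the class-wide ratios was not tested. Over the whole class, Col14a1 had 2.17 and 3.56 CPM (log2 ratio -0.71) and Col20a1 had 1.74 and 3.01 CPM (-0.79). Col25a1 had 1.23 and 2.53 CPM (-1.04) and Col27a1 had 0.389 and 1.08 CPM (-1.48). Col2a1, Col8a1 and Col11a2 had log2 ratios of -0.39, -0.43 and -0.47, and Col7a1 and Col17a1 had 0.45 and 0.48, with intervals that include 0 for the last 2.

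Over the 35 collagen genes compared in epithelium, 14 were over 1.5-fold higher and 8 over 1.5-fold lower in KO, where 6.86% and 11.9% of all genes were; their median log2 ratio was 0.10, and that of all genes -0.06. Empty droplets gave 15 higher and 1 lower of 25, where 6.84% and 8.08% of all genes were, with a median of 0.86 and -0.01 over all genes. The transmembrane chains had a log2 ratio of -0.73 (-0.81 to -0.65) as a sum in epithelium, and collagen IV -0.84 (-0.94 to -0.73). Col17a1, the hemidesmosome collagen of squamous epithelium, reached 30.8 CPM in a KO group with Sprr2d and Krt6b among its leading genes, from 13 UMIs in 7.14% of its 28 cells; that group had no WT cell. Other low chains, Col4a3, Col4a4, Col4a5, Col8a2, Col13a1, Col19a1, Col22a1, Col26a1 and Col28a1, stood at 0.0648 to 0.529 CPM in KO and 0.0809 to 0.485 CPM in WT epithelium.

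Immune cells held few collagen UMIs, with some exceptions by cluster. In neutrophils 11 of 14 compared genes were over 1.5-fold higher in KO and 0 lower, where 18.9% and 5.99% of all genes were, with a median log2 ratio of 1.14 against 0.17 over all genes. Col3a1 had 14.3 CPM in KO and 2.26 CPM in WT neutrophils beside 67.7 and 10.9 CPM in empty droplets. Col4a2 stood above Col4a1 there, at 11.8 and 6.18 CPM against 6.23 and 3.31 CPM for Col4a1. Col15a1 had 33.0 CPM in KO and 14.6 CPM in WT in the neutrophil cluster led by Gbe1 and Hmox1, and 1.71 and 0.479 CPM in another neutrophil cluster. Col14a1 had 30.2 CPM in KO and 31.0 CPM in WT in macrophages marked by C1q genes and Ms4a7 (235 and 377 cells), and 1.90 and 1.57 CPM in another monocyte or macrophage cluster. Col27a1 had 6.39 and 17.9 CPM in dendritic cells, from 5 and 30 UMIs.

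Genes that modify, process and bind collagen were followed by list. Of 17 genes of hydroxylation and folding, fibroblasts led 12 in KO and 11 in WT, against 10.8% and 7.31% of all genes. In fibroblasts 2 of 16 compared were over 1.5-fold higher and 2 lower, where 16.9% and 14.5% of all genes were. Fkbp10, a collagen-folding isomerase, had 111 CPM in KO and 59.8 CPM in WT, a log2 ratio of 0.89 (0.22 to 1.63). P4ha3, a prolyl 4-hydroxylase subunit, had 34.6 and 68.8 CPM, a log2 ratio of -0.99 (-1.69 to -0.24). The other 2 had intervals that include 0. P3h1, a prolyl 3-hydroxylase, had 52.7 and 26.9 CPM (-0.01 to 2.14), from 102 and 9 UMIs. Plod1, a lysyl hydroxylase, had 42.3 and 68.8 CPM (-1.38 to 0.04), from 82 and 23 UMIs. In epithelium 1 was higher and 3 lower of 16, among them the collagen chaperone Serpinh1 with 3.44 and 7.48 CPM, where 6.86% and 11.9% of all genes were higher and lower. In endothelial cells 0 were higher and 5 lower of 12, where 16.2% and 13.6% of all genes were.

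For the lists that follow, the shares of all genes over 1.5-fold higher and lower in KO were 16.9% and 14.5% in fibroblasts, 6.86% and 11.9% in epithelium, and 16.2% and 13.6% in endothelial cells. The 15 genes of processing and crosslinking were led by fibroblasts in 12 cases in KO and 8 in WT, against 10.8% and 7.31% of all genes. Lox, a lysyl oxidase, had 122 CPM in KO and 185 CPM in WT fibroblasts, a log2 ratio of -0.60, and was the 1 gene of 11 past 1.5-fold there. In epithelium 4 were higher and 2 lower of 11, with Pcolce, an enhancer of procollagen cleavage, at a log2 ratio of 1.17 there and 1.60 in empty droplets. Among 11 collagen receptors 1 was higher and 1 lower in epithelium, and 0 and 1 of 6 in fibroblasts. There Itga11, an integrin subunit for fibrillar collagen, had 13.4 and 23.9 CPM from 26 and 8 UMIs. Its log2 ratio was -0.83, with an interval that includes 0 (-2.02 to 0.52). Of the basement membrane partners 2 were higher and 2 lower of 14 in fibroblasts, including the laminin chain Lama1 with 147 and 323 CPM and the linker Nid1 with 163 and 95.7 CPM, and 2 were higher and 5 lower of 11 in endothelial cells.

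Of the interstitial matrix partners, 7 of 10 were over 1.5-fold higher in KO and 0 lower in epithelium, where 6.86% and 11.9% of all genes were, with a median log2 ratio of 1.89. In empty droplets 7 of 9 were higher and 0 lower, where 6.84% and 8.08% of all genes were, with a median of 1.44. Sparc, a collagen-binding glycoprotein, had a log2 ratio of 1.25 in epithelium, and the small proteoglycans Dcn and Bgn had 2.01 and 2.06. In endothelial cells 1 was higher and 1 lower of 7, with a median of 0.02. In fibroblasts 2 were higher and 1 lower of 10, with a median of -0.06. Lum, which spaces fibrils, had a log2 ratio of 1.16, and the related Fmod -1.34.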

How the data were processed

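Per the file headers, the deposited matrices came from Cell Ranger 4 and hold whole-number UMI counts, not normalized by the authors, for every barcode; the submitters' processing notes name the build mm10. No source used here gives the counting strand, so any read in the 22-base overlap of Col4a1 and Col4a2 cannot be assigned. That overlap lies at the start sites of both genes, away from the 3′ ends where tags are captured.

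Barcodes with 500 or more UMIs were tested against empty droplets (under 100 UMIs; 10000 Monte Carlo draws, FDR 0.001). Those with fewer than 200 genes, or with more than 25% of UMIs from mitochondrial genes, were dropped, and so were the highest doublet scores from simulated doublets (0.8% for every 1000 cells, 992 KO and 765 WT barcodes). Log counts per 10000 of 2000 variable genes other than collagens entered 30 components, 15 neighbours and Leiden clustering at resolution 1, and at 0.6 within a class. Clusters were named from 3 or more markers out of 16 class lists that hold no collagen. CPM are the summed UMIs of a class over its total in that library, with exact Poisson intervals. The log2 ratio of KO over WT has an exact conditional binomial interval, and shares have an exact binomial one. Only the ratio interval was tested on simulated data. Those data were Poisson class sums, so the test does not cover UMIs clumped in single cells. Ratios were taken for genes with 20 or more UMIs in the class. Single libraries allow no test between genotypes.

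Every collagen gene is named. Full values go to the 6 highest in fibroblasts, the 5 highest in endothelial cells, any with its interval wholly above that of empty droplets in epithelium, and Col16a1; from the other lists the most abundant genes past 1.5-fold are named. Further chains, such as Col9a2 and Col9a3, were picked after their values were seen. The members and lists were chosen with earlier results of these data known. Coordinates are those of the GENCODE annotation of GRCm38. Alternatives covered cell calling, the mitochondrial limit, doublets, resolution, scaling, totals, free RNA and thinning. The software was scanpy 1.11.5 with leidenalg 0.10.2 and igraph 0.11.9, scipy 1.17.1, numpy 2.4.6, matplotlib 3.10.9 and pandas 2.3.3, under Python 3.11.15.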

Additional observations from a re-analysis of the deposited data

Results flagged for a closer look

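For 5 chains the KO over WT ratio had opposite signs in a pair of cell classes, with counting intervals that exclude 0 on both sides, and the difference between the classes was not tested. Col12a1 had a log2 ratio of 2.05 in epithelial cells and -0.51 in fibroblasts, beside 7.07 CPM in KO and 1.34 CPM in WT empty droplets. Col5a2 had 2.005 in epithelial cells and -1.87 in endothelial cells, where its UMIs came from 5 KO and 3 WT cells, beside 2.22 in empty droplets. Col18a1 had 1.72 in neutrophils, from 28 and 8 UMIs, and -0.36 in epithelial cells, beside 1.22 in empty droplets. Col4a1 had 0.91 in neutrophils and -1.03 in epithelial cells, beside 0.18 in empty droplets. Col4a2 had 0.93 in neutrophils and -0.67 in endothelial cells, beside 0.69 in empty droplets. Of its 83 KO and 41 WT neutrophil UMIs, 27 and 1 lay in a single cluster of 435 and 169 cells. In other neutrophil clusters its log2 ratio was 0.73 and -0.28, with intervals that include 0.

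Barcodes with 100 or more but under 500 UMIs, used for neither cells nor empty droplets, also carried collagen RNA. They held 334 CPM in KO and 148 CPM in WT, where empty droplets held 318 and 152 CPM.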

How the results depend on the processing

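Each result was recomputed under 23 settings; 267 of 298 values of the main results and 218 of 257 of single genes stayed within their counting interval, or within 1.5 times for counts and 10% for levels in a group. With every barcode of 500 or more UMIs as a cell, with or without unnamed epithelial-scoring clusters, fibroblasts held 64.1% (KO) and 11.5% (WT) of collagen UMIs and, in WT, led 0 chains, since only 18 WT fibroblasts were named, epithelial cells 13 and endothelial cells 13. A 10% mitochondrial limit gave a KO share of 67.8%, a fibrillar epithelial log2 ratio of 1.38 and 3 chains above empty droplets in epithelium (2 with unnamed clusters counted). Without doublet removal the shares were 68.1% and 24.4%, epithelial cells led 4 chains in WT, and the fibrillar fibroblast ratio was 0.52. Resolution 0.5 gave 1.37 for the fibrillar epithelial ratio and 3 chains above empty droplets. Keeping collagens among the variable genes gave -0.95 for epithelial collagen IV and 2 chains above empty droplets, and turned Col9a2 in epithelium to 0.029 (-0.10 to 0.16). With free RNA subtracted, which left no Col1a1 value in epithelium, the shares were 73.8% and 23.3%, 8 chains stood over 1.5-fold higher in epithelium, and the fibrillar and collagen IV ratios were 0.083 and -1.35. Epithelial cells with no UMI of 5 fibroblast genes gave 2 chains above empty droplets, and empty droplets of 20 to 99 UMIs gave 3. Where no construction shows it, the cause was not tested. Median-of-ratios scaling changed the KO total by a log2 factor of -0.06 in epithelium and 0.01 in fibroblasts. It thus raised all log2 ratios in epithelium and lowered them in fibroblasts by these small amounts. The comparison of fibroblasts without the pericyte-marked group (63.5% of KO collagen UMIs), the reclustered settings with unnamed clusters counted, and the omission of the shallow epithelial cluster were chosen after seeing the data. No paired analysis was possible because each genotype had 1 library. The sums of 35 WT fibroblasts and 37 WT endothelial cells rest on few cells.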
